A study of Mus musculus with 1600 samples.

Results

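Single cells of the mouse hind limb at embryonic stage E15.5 were divided by their level of Tnmd, the gene of tenomodulin, a membrane glycoprotein of differentiating tendon cells. Of the 200 E15.5 cells, all with at least 1000 detected genes, 20 had Tnmd at 200 CPM (the gene's counts scaled to the same fixed total in every cell) or more and are called Tnmd-high. Another 95 cells had under 20 CPM of Tnmd, at least 500 CPM of Col1a1 and under 500 CPM of Col2a1, and are called Tnmd-low. These 115 cells were compared across all other genes, of 480 cells of 3 stages in the table and 477 with at least 1000 detected genes. The other 85 E15.5 cells were 10 cells that met the conditions on Col1a1 and Col2a1 with Tnmd between these limits and 75 cells outside all 3 groups.

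Every cell came from hind limbs of C57BL/6 embryos that carried an Scx-GFP transgene, so Tnmd-high and Tnmd-low cells share strain, genotype, tissue and stage. No sorting step on GFP is described. Limbs of siblings from a single litter, 3 to 5 to a pool, were combined before collagenase and trypsin digestion. Cells were then loaded on a Fluidigm C1 chip, in which each cell is held in its own chamber and its RNA is copied into cDNA. The E15.5 cells are therefore 1 biological sample: no test between the groups was possible, and intervals (exact 95% Poisson for summed counts, exact 95% Clopper-Pearson for shares of cells) cover counting error only.

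Tendon is built by fibroblast-like cells that lay down parallel fibrils, mostly of type I collagen. The transcription factor scleraxis (Scx) marks their progenitors, Mohawk (Mkx) is needed for the collagen content of the tendon, and tenomodulin appears as the cells differentiate. Small leucine-rich proteoglycans such as fibromodulin (Fmod), keratocan (Kera), decorin (Dcn) and lumican (Lum) bind collagen and influence how fibrils grow. Where tendon inserts into cartilage, progenitors can express scleraxis together with Sox9, the regulator of cartilage cells.

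Scleraxis is a basic helix-loop-helix factor, a class that binds the E-box CANNTG. The 250 bases before the RefSeq start (GRCm38.p6) are shown for Tnmd, which chose the cells, and for Fmod and Prss35, described below with the largest ratios after Scx among the higher genes. Capitals mark CANNTG, which reads as CANNTG on either strand, so that 1 search covers both.
Tnmd, chrX:133850758-133851007, plus strand: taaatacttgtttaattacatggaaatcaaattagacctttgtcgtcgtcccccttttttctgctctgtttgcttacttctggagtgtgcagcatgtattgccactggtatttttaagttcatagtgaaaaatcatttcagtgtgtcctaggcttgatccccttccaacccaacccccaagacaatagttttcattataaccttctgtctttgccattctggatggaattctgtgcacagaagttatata
Fmod, chr1:134037004-134037253, plus strand: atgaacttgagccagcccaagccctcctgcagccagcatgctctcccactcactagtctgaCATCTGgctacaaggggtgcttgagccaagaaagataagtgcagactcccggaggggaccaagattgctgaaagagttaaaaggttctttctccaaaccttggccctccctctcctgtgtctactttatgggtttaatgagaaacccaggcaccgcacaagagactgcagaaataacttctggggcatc
Prss35, chr9:86743383-86743632, plus strand: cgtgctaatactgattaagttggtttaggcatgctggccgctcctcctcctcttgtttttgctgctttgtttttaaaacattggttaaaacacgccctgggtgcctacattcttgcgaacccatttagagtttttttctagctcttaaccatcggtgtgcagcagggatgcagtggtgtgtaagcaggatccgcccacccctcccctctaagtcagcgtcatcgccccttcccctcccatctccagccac
The motif occurred once in the Fmod window, 189 bases before the start, and not in the other 2. It occurred in 66.0% of the 27025 RefSeq windows of this length and in 55.0% of the 7548 windows of tested genes. By the rules given below, 37 of the 64 genes higher by the pool rule with an entry held it (57.8%), and 22 of the 46 higher by the share rule (47.8%). The mean number per window was 0.935 for these 46 and 0.839 for tested genes, so share and number differ in direction.

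The values that chose the cells are given as a description. Tnmd (chromosome X, 133850980 to 133865577, plus strand, GRCm38 with GENCODE vM21, as all gene positions here) ranged from 207 to 3590 CPM with a median of 1218 in the Tnmd-high cells, against 0 to 17.5 CPM in the Tnmd-low cells, of which 62 of 95 had 0 counts. The lowest Tnmd-high cells had 207, 222 and 325 CPM, the highest intermediate cells 191, 157 and 99.2 CPM, and the highest cell outside the 3 groups 185 CPM. At the lower limit, the highest Tnmd-low cells had 17.5, 17.2 and 15.4 CPM and the lowest intermediate cells 31.1, 41.7 and 41.9 CPM. Col1a1, a chain of type I collagen, was at 1200 to 14418 CPM in the Tnmd-high cells, all 20 of which passed 500 CPM although the rule did not ask it of them. It was at 532 to 11957 CPM in the Tnmd-low cells. Col2a1, the main cartilage collagen, reached 500 CPM in 7 of the 20 Tnmd-high cells, whereas Tnmd-low cells were required to be under it.

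Depth differed between the groups. The median Tnmd-high cell held 250050 counts and 5217 detected genes, and the median Tnmd-low cell held 181344 counts and 4282 genes. Summed counts were 5398708 and 19355367. The cells lay in 5 library pools numbered 8 to 12, which reused the same 40 cell barcodes. Pools 8 to 12 held 7, 3, 3, 5 and 2 Tnmd-high cells and 15, 17, 23, 14 and 26 Tnmd-low cells. Because deeper cells detect more genes, shares of cells are also given after each cell was thinned to 50000 counts, which left 19 Tnmd-high and 85 Tnmd-low cells.

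The Tnmd-low cells were not all mesenchyme by their markers. Summed markers of skeletal muscle, endothelium, epidermis, immune or red cells reached 1000 CPM in at least 1 of these classes in 0 of 20 Tnmd-high cells and in 27 of 95 Tnmd-low cells, which are therefore named here by the rule alone. Epidermal markers passed this level in 12 Tnmd-low cells, endothelial markers in 6, muscle and immune markers in 4 each and red cell markers in 2. In the Tnmd-high cells the highest sums were 565.8 CPM for the muscle list, 509 for the epidermal list, 436 for the red cell list, 146 for the immune list and 138 for the endothelial list. Markers with 0 counts there were 12 of 22 for muscle, 5 of 9 for red cells and 4 of 14 for immune cells. For endothelium they were 2 of 11 (Kdr and Cldn5) and for epidermis 1 of 16 (Epcam), so most markers of these 2 lists were read.

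A gene was first called where the log2 ratio of summed CPM, with 5 CPM added to each group, reached 1 in size and kept its sign in every pool with at least 3 cells of each group, which are pools 8 to 11. The 10593 genes tested were those read in 10 or more of the 115 cells. Of these, 93 were called higher in Tnmd-high cells (0.878%) and 851 lower (8.03%). The median log2 ratio of all tested genes was -0.12. The larger number of lower genes is not read as a result, and its cause was not tested. These genes had a count in a median of 20.0% of Tnmd-high and 27.4% of Tnmd-low cells. Over all tested genes these medians were 40% and 33.7%. A low share in Tnmd-high cells is partly what being called lower selects. Of the 851, 50 had 0 counts in all 20 Tnmd-high cells. A second rule, added after the data were seen, replaced the condition on the pools by 1 on cells. It asked, beside the same size of ratio, for a difference of at least 30 percentage points in the share of cells with at least 50 CPM. By this rule 66 genes were higher (0.623%) and 5 lower (0.0472%). Of the 66, 26 also met the pool condition, and 61 were higher in at least 3 of the 4 pools. In the thinned cells 41 of the 66 and 2 of the 5 still met the share rule. The first is called the pool rule and the second the share rule.

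**Figure D1:**
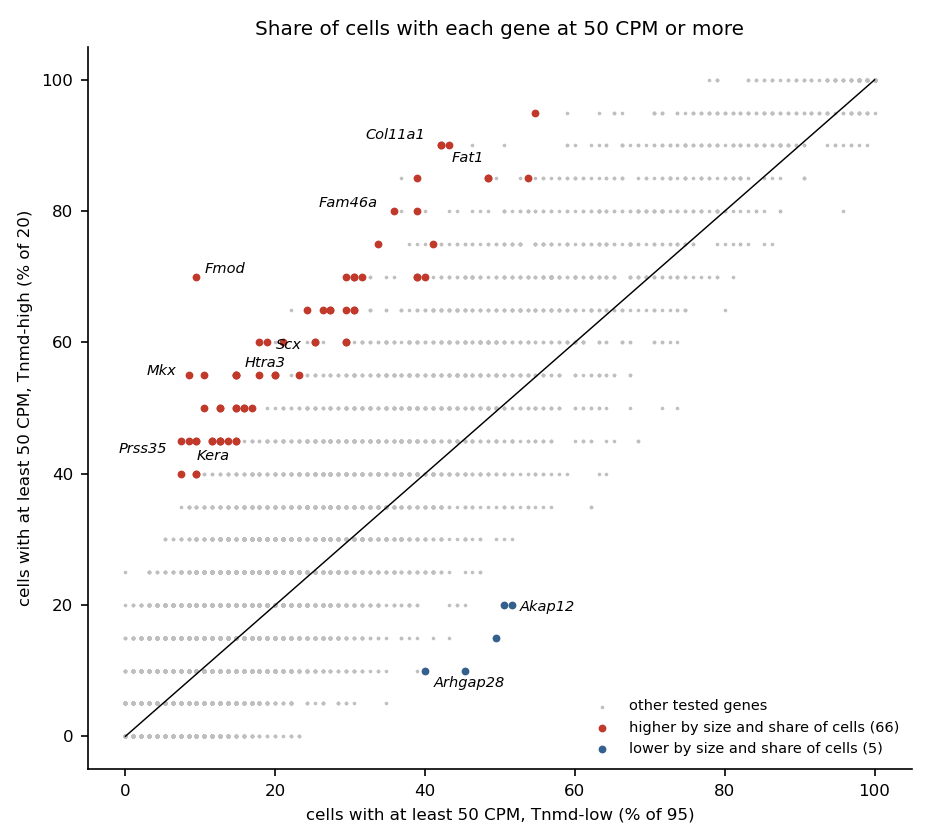
Share of the 20 Tnmd-high cells (vertical axis, %) and of the 95 Tnmd-low cells (horizontal axis, %) with at least 50 CPM of each tested gene. Red points are the 66 genes higher and blue points the 5 lower by the share rule, grey points the other tested genes. Fmod lies farthest above the diagonal line of equal shares, at 70.0% and 9.47%.

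The tendon regulators Scx and Mkx were higher in the Tnmd-high cells in summed CPM and in the share of cells. Scx (chromosome 15, 76457452 to 76459458, plus strand) ranged from 0 to 8879 CPM with a median of 185 in the 20 Tnmd-high cells, against 0 to 3011 CPM with a median of 2.40 in the 95 Tnmd-low cells. The groups overlapped, since 4 Tnmd-high cells had no Scx count and 18 Tnmd-low cells had at least 50 CPM, against 12 Tnmd-high cells.
Summed, Scx stood at 1327 CPM (1297 to 1358) in Tnmd-high and 85.6 CPM (81.5 to 89.8) in Tnmd-low cells, a log2 ratio of 3.88, and was higher by both rules. A single cell held 42.0% of the Scx counts of the Tnmd-high group and another held 52.5% of those of the Tnmd-low group. Without the highest cell of each group the log2 ratio was 4.16. Within pools 8, 9, 10 and 11 it was 3.96, 2.62, 2.14 and 3.64. After thinning, Scx was read in 13 of 19 Tnmd-high cells (68.4%) and in 31 of 85 Tnmd-low cells (36.5%). The labels do not describe the transgene's sequence, so reads of Scx from the transgene and from the gene's own locus cannot be told apart.

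Mkx, a homeobox factor, ranged from 0 to 567.8 CPM with a median of 82.1 in Tnmd-high cells, against 0 to 490 CPM with a median of 0 in Tnmd-low cells. At least 50 CPM were read in 11 of 20 Tnmd-high cells (55.0%, 31.5 to 76.9) and in 8 of 95 Tnmd-low cells (8.42%, 3.71 to 15.9). The log2 ratio was 2.57. It was negative in pool 9 (-0.83), where 3 cells are Tnmd-high, so Mkx met the share rule and not the pool rule. After thinning, 78.9% of Tnmd-high and 16.5% of Tnmd-low cells had a count.

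Of the 10 tested tendon regulators, 1 (Scx) was called higher by the pool rule, beside 0.878% of all tested genes. None of the 10 was lower by either rule. Their median log2 ratio was 0.70. Egr1, an immediate-early factor that acts in tendon differentiation, was at 1586 CPM in Tnmd-high and 1754 CPM in Tnmd-low cells, with at least 50 CPM in 19 of 20 and 94 of 95 cells.

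**Figure D2:**
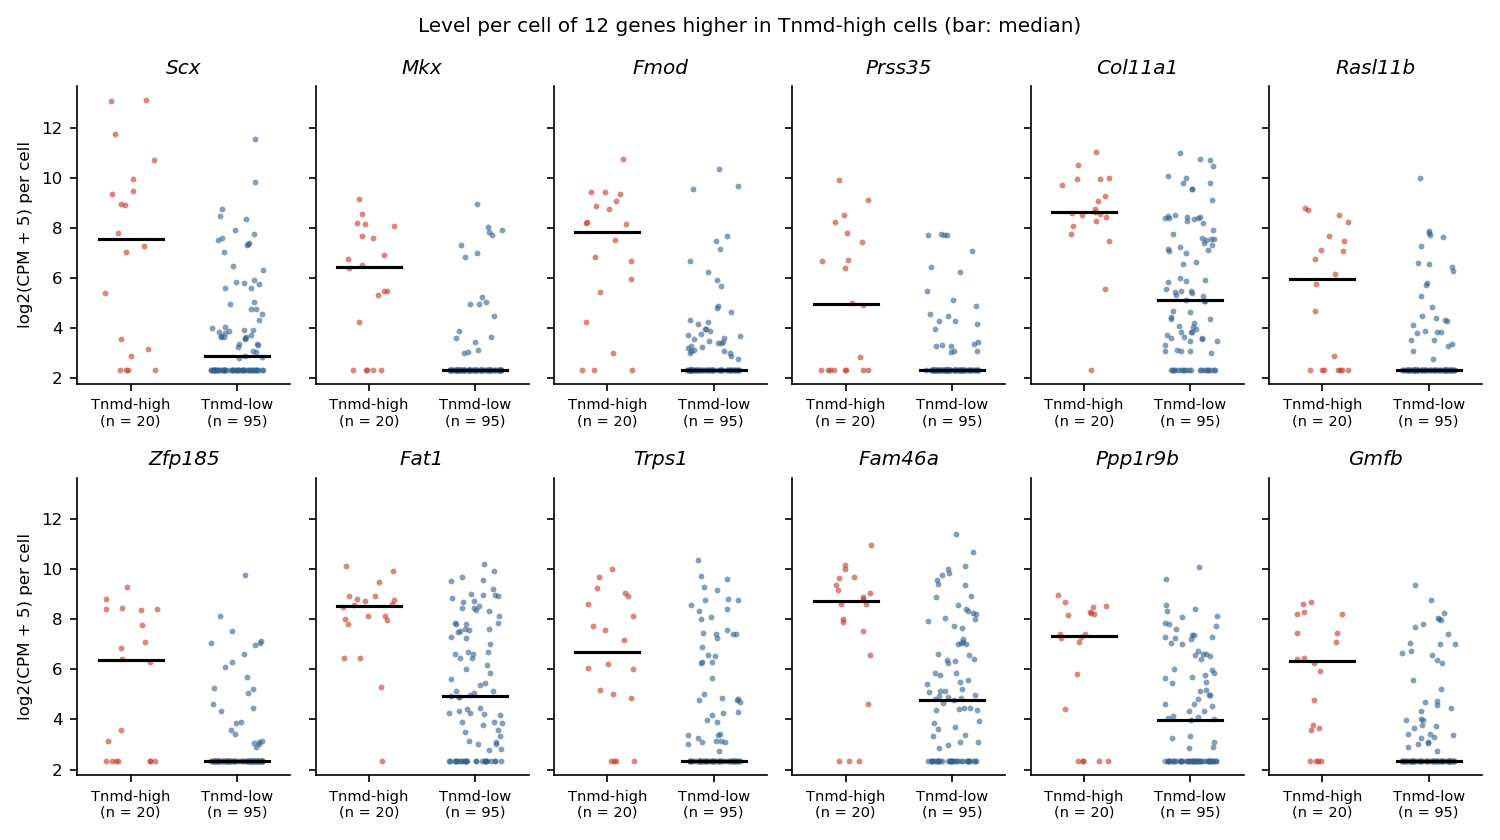
Level per cell, as log2 of CPM + 5, of the 12 genes that stayed higher by the share rule under all 16 alternative settings, in Tnmd-high (n = 20, left) and Tnmd-low cells (n = 95, right). Points are cells and bars are medians. In every panel the groups overlap, and cells at the bottom (0 CPM) occur in both.

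Among matrix genes of tendon, fibromodulin stood out in the number of cells. Fmod (chromosome 1, 134037254 to 134048277, plus strand) ranged from 0 to 1711 CPM with a median of 230 in Tnmd-high cells, against 0 to 1298 CPM with a median of 0 in Tnmd-low cells. At least 50 CPM were read in 14 of 20 Tnmd-high cells (70.0%, 45.7 to 88.1) and 9 of 95 Tnmd-low cells (9.47%, 4.42 to 17.2). The groups overlapped, with a count in 17 Tnmd-high and 38 Tnmd-low cells.
Summed Fmod was 324 CPM (309 to 340) in Tnmd-high and 35.4 CPM (32.8 to 38.2) in Tnmd-low cells, with a log2 ratio of 3.03 overall and of 2.76, 1.34, 2.08 and 2.13 within pools 8 to 11. After thinning it was read in 78.9% of Tnmd-high and 24.7% of Tnmd-low cells.

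Kera, which encodes another proteoglycan of this family, ranged from 0 to 952 CPM with a median of 6.30 in Tnmd-high cells, against 0 to 1492 CPM with a median of 0 in Tnmd-low cells. At least 50 CPM were read in 9 of 20 Tnmd-high and 8 of 95 Tnmd-low cells, so the highest single cell was Tnmd-low while a larger share of cells was Tnmd-high. The log2 ratio was 2.44 overall but -1.15 in pool 9, and without pool 11 Kera no longer met the share rule. Dcn and Lum did not follow Fmod and Kera, although 6 of the 9 tested members of the family had a ratio above 0. Dcn was at 1067 CPM in Tnmd-high and 1269 CPM in Tnmd-low cells, and Lum at 774 and 895 CPM in the same order. Biglycan (Bgn) had a log2 ratio of 0.97, just under the limit, with at least 50 CPM in 19 of 20 Tnmd-high and 62 of 95 Tnmd-low cells. Of 9 tested members of the family, 2 were higher and none lower by the share rule, and 1 (Fmod) was called higher by the pool rule, beside 0.623% and 0.878% of all tested genes.

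Col11a1 (chromosome 3, 114030540 to 114220718, plus strand) encodes a chain of type XI collagen, which starts fibrils in tendon and cartilage. It ranged from 0 to 2076 CPM with a median of 387 in Tnmd-high cells, against 0 to 1994 CPM with a median of 29.8 in Tnmd-low cells. The ranges coincided, but 18 of 20 Tnmd-high cells reached 50 CPM, against 40 of 95 Tnmd-low cells. Its log2 ratio was 1.94 and lay above 0 in each of pools 8 to 11, lowest in pool 10 (0.78) and highest in pool 11 (3.40). In the 34 E15.5 cells with at least 500 CPM of Col2a1 that were not Tnmd-high, Col11a1 was at 1281 CPM, above the 696 CPM of the Tnmd-high cells, so a high level was not particular to these. Fmod (116 CPM), Scx (36.2 CPM), Mkx (13.3 CPM) and Prss35 (19.1 CPM) were lower in those Col2a1-high cells than in Tnmd-high cells.

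Other matrix genes of tendon were higher in summed counts but in few cells. Thbs4, thrombospondin 4, a tendon matrix protein, had 270 CPM (257 to 285) in Tnmd-high and 21.5 CPM (19.5 to 23.7) in Tnmd-low cells, yet it was read in 5 of 20 and 13 of 95 cells and met neither rule. Its within-pool log2 ratios ran from -1.54 in pool 10 to 5.38 in pool 8, and leaving out pool 11 gave 4.27 in place of 3.38. Tnc, tenascin C, and Col14a1, a fibril-associated collagen, were called higher by the pool rule (log2 ratios 1.69 and 1.53) without meeting the share rule. Without the highest cell of each group Tnc was no longer called. Comp, a cartilage and tendon matrix protein, had counts in 2 of 20 Tnmd-high and 3 of 95 Tnmd-low cells, too few to be tested. Of the 15 tested members of this list 5 were higher (Fmod, Kera, Col11a1, Ptgis and Htra3) and none lower by the share rule. The pool rule called 5 higher and 1 lower. Over all tested genes these shares were 0.623% and 0.0472% by the share rule, and 0.878% and 8.03% by the pool rule. Ptgis lost its place without pool 11, without pool 12 and without the cells with markers of other types. The lower gene, Igfbp6, had 2 of 20 Tnmd-high and 8 of 95 Tnmd-low cells with a count. The list's median difference in the share of cells was 22.6 percentage points and its median log2 ratio 1.57, beside 1.84 points and -0.12 over all tested genes.

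**Figure D3:**
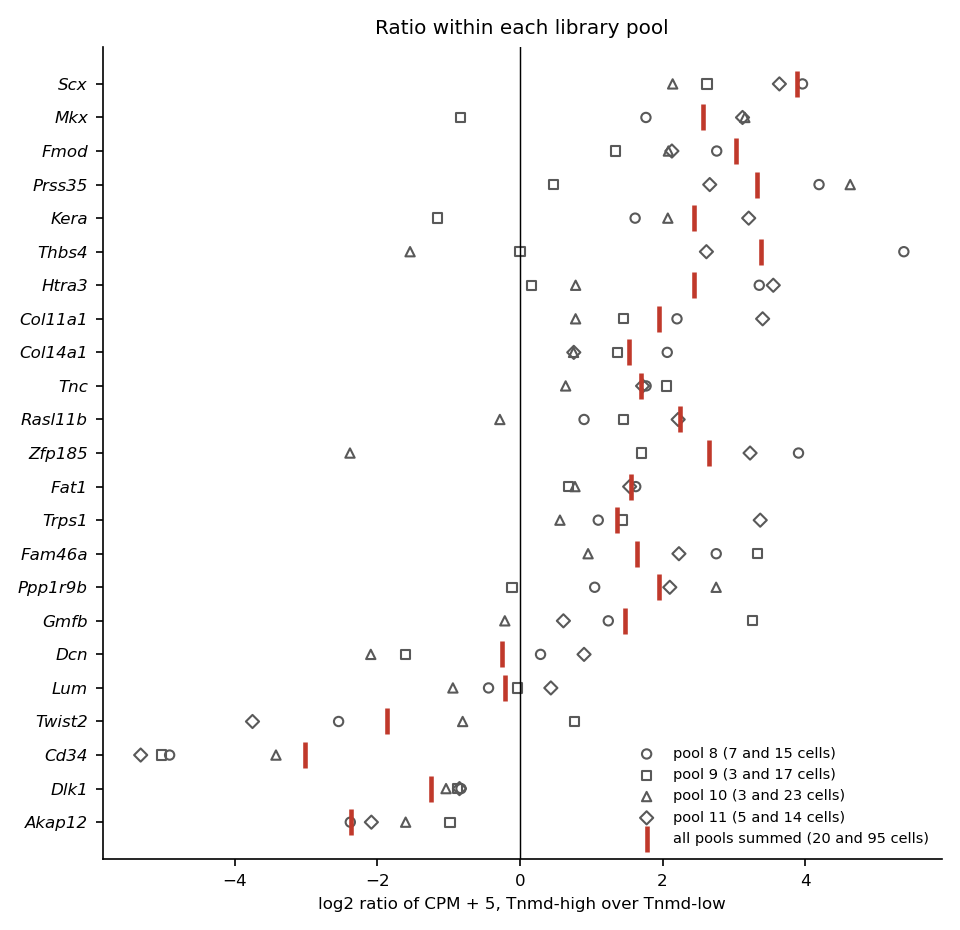
Log2 ratio of CPM + 5, Tnmd-high over Tnmd-low, for 23 genes within library pools 8 to 11 (open symbols, with the number of Tnmd-high and Tnmd-low cells) and summed over all cells of the groups (red bars). Scx, Fmod, Prss35, Col11a1, Htra3, Col14a1, Tnc, Fat1, Trps1 and Fam46a lie right of 0 in all 4 pools, Mkx and Kera lie left of 0 in pool 9, and Dcn and Lum scatter around 0.

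Among proteases and secreted factors, Prss35 and Htra3 were higher by both rules. Prss35 (chromosome 9, 86743649 to 86758443, plus strand) encodes a serine protease-like protein. It ranged from 0 to 965 CPM with a median of 26.0 in Tnmd-high cells, against 0 to 209 CPM with a median of 0 in Tnmd-low cells, and reached 50 CPM in 9 of 20 and 7 of 95 cells. Summed, it was 178 CPM (167 to 189) in Tnmd-high and 13.3 CPM (11.7 to 15.0) in Tnmd-low cells, a log2 ratio of 3.32 that became 4.13 without pool 9. Without the highest cell of each group it was 3.14 and no longer met the pool rule.
Htra3, a secreted serine protease, was at 288 CPM in Tnmd-high and 49.1 CPM in Tnmd-low cells and reached 50 CPM in 11 of 20 and 14 of 95 cells. Its log2 ratio was 3.36 and 3.55 within pools 8 and 11 but 0.16 and 0.78 within pools 9 and 10. It no longer met the pool rule without the cells with markers of other types. Timp3, an inhibitor of metalloproteases, was also higher by both rules, with a log2 ratio of 1.20 that became 0.94 without the highest cell of each group. It lost the share rule without pool 10 and without pool 11. Pcolce, which enhances the cleavage of procollagen, had 595.1 CPM in Tnmd-high and 269 CPM in Tnmd-low cells, and lost the share rule without pool 8 and without pool 11. Pcolce also lost it after thinning and with the mean of per-cell CPM in place of summed CPM.

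Of the 21 tested genes of the list for the secretory pathway and the unfolded protein response, 1 was higher by both rules. This was Sec61a1, the pore of the translocon. By the pool rule 1 gene (Dnajb9) was lower, and the list's median log2 ratio was 0.37. Over all tested genes 0.623% were higher by the share rule, and 0.878% higher and 8.03% lower by the pool rule. Sec61a1 reached 50 CPM in 17 of 20 Tnmd-high and 46 of 95 Tnmd-low cells. It lost the share rule under 8 of the 16 alternatives, among them without pool 8, 10 or 11 and without the cells with markers of other types. With the same Col1a1 and Col2a1 conditions for both groups its log2 ratio was 0.26. Some secretory genes outside this list, chosen after their values were seen, met the share rule. Cope, a subunit of the coat of retrograde Golgi vesicles, was at 556 CPM in Tnmd-high and 164 CPM in Tnmd-low cells, with at least 50 CPM in 16 of 20 and 37 of 95 cells. Yipf5 (17 of 20 and 37 of 95 cells), a membrane protein of the Golgi, Stt3a (13 and 23), the catalytic subunit of oligosaccharyltransferase, and Tmed3 (14 and 29) also met the rule. Cope was lower in Tnmd-high cells of pool 10. Tmed3 lost the share rule under 3 of the 16 alternatives, among them without pool 10. Yipf5 lost it under 7, among them without pool 9 or 10. Fibrillar collagens outside the rule varied: Col1a2, the partner chain of Col1a1, was called higher by the pool rule at 11007 CPM in Tnmd-high and 4787 CPM in Tnmd-low cells, but not without pool 8 or without the cells with markers of other types. Col3a1 was at 3025 and 2728 CPM in the same order, and Col6a1 was called lower at 239 and 518 CPM, but not without pool 8 or without pool 10.

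Other genes that met the share rule under all 16 alternatives were Fat1, Trps1, Fam46a, Rasl11b, Zfp185, Ppp1r9b and Gmfb. Fat1 is an atypical cadherin, and Trps1 a zinc finger repressor of skeletal development. The share rule does not ask for agreement of the pools. Fat1, Trps1 and Fam46a were higher within each of pools 8 to 11. Zfp185 was at 0, 3.86 and 6.81 CPM in the Tnmd-high cells of pool 10, where a Tnmd-low cell reached 857 CPM. Fat1 reached 50 CPM in 18 of 20 Tnmd-high and 40 of 95 Tnmd-low cells, with 458 and 151 CPM summed. Fam46a was at 534 CPM in Tnmd-high and 168 CPM in Tnmd-low cells and reached 50 CPM in 16 of 20 and 34 of 95 cells. Trps1 was at 245 and 92.3 CPM in the same order. The log2 ratio of Rasl11b, 2.24, became 2.85 without pool 8 and 1.32 without pool 12. The 12 genes named as kept were selected by their values in these cells.

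Of 21 tested genes of the connective tissue and dermal fibroblast list 4 had a ratio above 0, and none was higher by either rule and none lower by the share rule. The pool rule called 4 lower, Cd34, Dlk1, Osr2 and Hic1, beside 8.03% of all tested genes. Cd34, a sialomucin of fibroblast and vascular progenitors, ranged from 0 to 184 CPM with a median of 0 in Tnmd-high cells, against 0 to 1276 CPM with a median of 3.46 in Tnmd-low cells. It reached 50 CPM in 2 of 20 Tnmd-high and 28 of 95 Tnmd-low cells, and most of its Tnmd-high counts (90.8%) came from 1 cell.
Its log2 ratio was -3.02, became -4.64 without pool 12 and was -2.52 without the cells that carried markers of other types. Dlk1, a Delta-like membrane protein of undifferentiated mesenchyme, was at 379 CPM in Tnmd-high and 906 CPM in Tnmd-low cells. It reached 50 CPM in 17 of 20 and 77 of 95 cells, so the difference lay in its level rather than in the share of cells, and its call was lost without pool 12. Osr2 was lost without pool 8, and Hic1 without pool 9 and without pool 12. Twist2, a repressor of mesenchymal differentiation, was at 62.4 and 241 CPM in Tnmd-high and Tnmd-low cells but higher in Tnmd-high cells of pool 9, so it was not called. Prrx1, a general limb mesenchyme factor, was at 475 and 473 CPM in the same order.

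The 5 genes lower by the share rule were Wdfy1, Eif4e, Akap12, Pkd1 and Arhgap28, and none of them kept its place under every alternative. Their number was not above that of simulated unchanged genes that met the rule. Leaving out a single pool ended the call of each. Akap12, a scaffold of protein kinase A, reached 50 CPM in 4 of 20 Tnmd-high and 49 of 95 Tnmd-low cells, with 80.0 and 434 CPM summed and a negative ratio in all 4 pools. It lost the share rule without pool 8 and without pool 10. Among the largest ratios of the pool rule, the metallothionein Mt1 was at 2.96 CPM (1.69 to 4.81) in Tnmd-high and 174 CPM (168 to 180) in Tnmd-low cells. S100a6 and Clu, clusterin, had log2 ratios of -3.23 and -3.25. The log2 ratios of Mt1, S100a6 and Clu were -3.81, -3.46 and -3.48 when the cells with markers of other types were left out. Epidermal and endothelial markers chose the cells left out, so their own values without those cells are a description. Krt14, a basal keratin, was at 12.0 CPM in Tnmd-high and 211 CPM in Tnmd-low cells, and its log2 ratio of -3.67 became 0.06 without those cells. Without those cells the median log2 ratios of the epidermal and endothelial lists were 0.07 and -0.08, and with them -2.13 and -2.92.

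**Figure D4:**
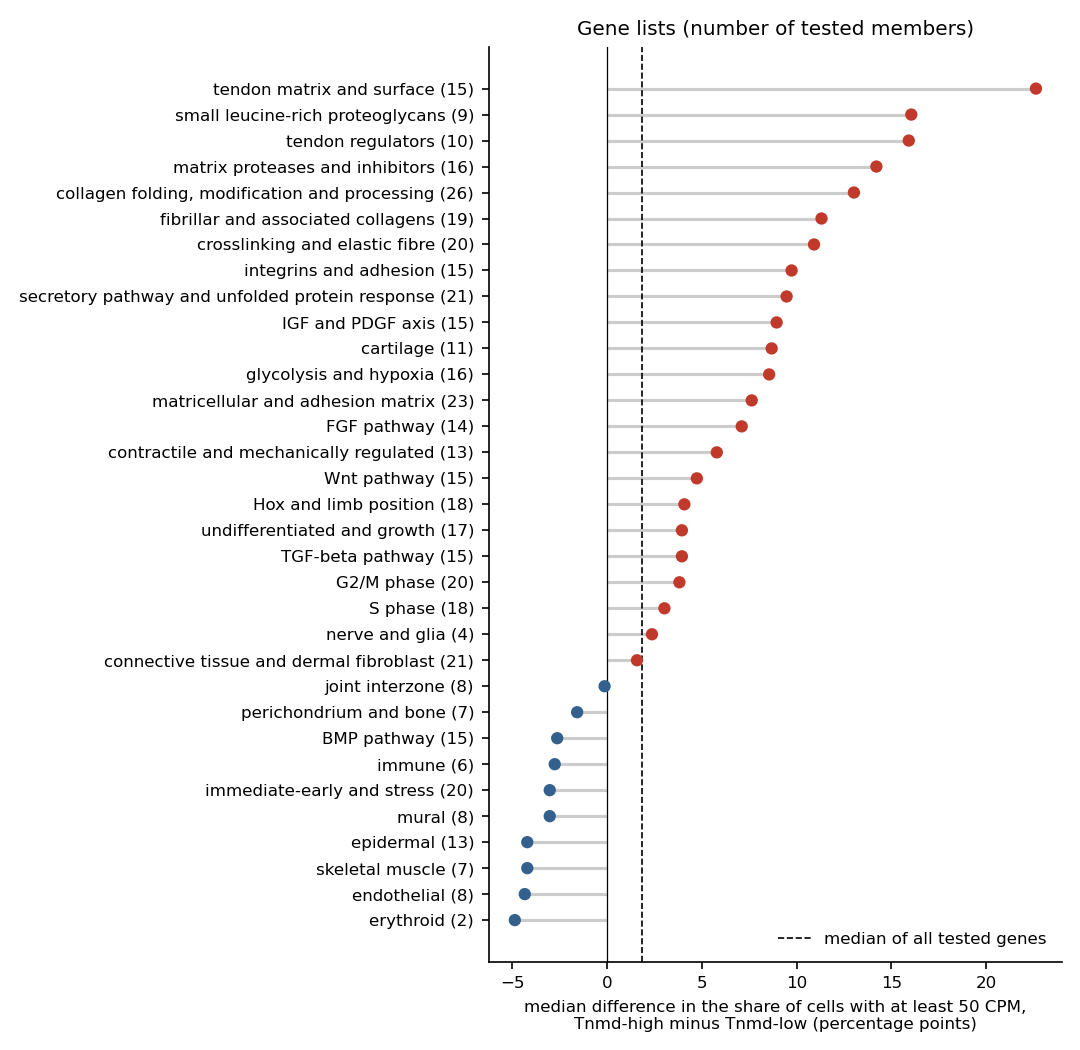
Median difference in the share of cells with at least 50 CPM, Tnmd-high minus Tnmd-low (horizontal axis, percentage points), over the tested members of each of 33 gene lists, with the number of tested members in brackets. Red points lie above 0 and blue points below, and the dashed line is the median of all tested genes, 1.84 points. Tendon matrix and surface genes lie farthest right at 22.6 points, and the red cell, endothelial, muscle and epidermal lists lie farthest left.

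Of 15 tested genes of the TGF-beta pathway, which induces scleraxis in limb progenitors, none was higher by either rule, and 2 (Tgfbr3 and Fst) were called lower by the pool rule, beside 8.03% of all tested genes. Tgfb2 was at 207 CPM in Tnmd-high and 128 CPM in Tnmd-low cells, and Tgfb3 at 108 and 49.8 CPM. The log2 ratio of Tgfb3, 1.05, became 0.17 without pool 8. None of 15 tested BMP and none of 14 tested FGF pathway genes met either rule. Of 15 tested Wnt pathway genes Dkk3 was higher by the share rule, and Wnt2 and Wnt4 were lower by the pool rule. Dkk3 lost the share rule without pool 8, without pool 12, after thinning and with the mean of per-cell CPM in place of summed CPM. Of 15 tested genes of the IGF and PDGF axis Pdgfrl was higher, and Igfbp6 and Pdgfa were lower, by the pool rule. Over all tested genes 0.623% were higher by the share rule, and 0.878% higher and 8.03% lower by the pool rule. Of 18 tested S phase genes 3 (Gins2, Cdc6 and Cdt1) were called lower by the pool rule, again beside 8.03%, and of 20 G2/M genes none met either rule.

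Cartilage genes need a separate reading, because the rule bars Col2a1 from the Tnmd-low cells alone. All 11 tested members of the cartilage list had a ratio above 0, with a median of 0.90, and none met either rule. With the same conditions on Col1a1 and Col2a1 set for the Tnmd-high cells, which left 13, the median was 0.45. Sox9 was at 207 CPM in Tnmd-high and 73.9 CPM in Tnmd-low cells, but 1 cell held 70.0% of its Tnmd-high counts, and without the highest cell of each group its log2 ratio of 1.43 became -0.10. Without pool 8, which gave the most Tnmd-high cells, it was 0.53. Fewer Tnmd-high than Tnmd-low cells reached 50 CPM of Sox9 by share, 5 of 20 and 28 of 95.

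Within the 20 Tnmd-high cells the tendon genes were spread unevenly. At 100 CPM or more, at least 2 of the 5 genes Scx, Mkx, Fmod, Kera and Thbs4 were present in 12 of 20 Tnmd-high cells (60.0%, 36.1 to 80.9) and in 6 of 95 Tnmd-low cells (6.32%, 2.35 to 13.2). At least 1 was present in 17 of 20 and 28 of 95 cells, and all 5 in 3 Tnmd-high cells and no Tnmd-low cell. Across the 20 cells Spearman's rho with Tnmd was 0.77 for Col11a1, 0.69 for Fmod, 0.53 for Kera, 0.39 for Htra3, 0.27 for Prss35, 0.20 for Thbs4, 0.20 for Mkx and -0.13 for Scx. These are descriptions over cells of 1 sample chosen by Tnmd, which share libraries. With the total count of a cell, rho was 0.30 for Col11a1, 0.36 for Fmod, 0.40 for Kera and 0.23 for Scx. It was 0.58 for Htra3, 0.52 for Prss35, 0.39 for Mkx and 0.33 for Thbs4. For Htra3, Prss35, Mkx, Thbs4 and Scx rho with the total count was above rho with Tnmd.

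The 7 Tnmd-high cells with at least 500 CPM of Col2a1 differed from the other 13 in some of these genes. Thbs4 had 0 counts in the 7 cells and a summed 400 CPM in the 13, from 5 of them, with a median of 0 in both sets. Scx had a median of 37.0 CPM in the 7 and 475 CPM in the 13, although the highest cells had 8475 CPM among the 7 and 8879 CPM among the 13. Fmod had medians of 427 and 108 CPM, and Mkx of 104 and 39.6 CPM, in the same order, so the 7 cells were not lower in every tendon gene. Htra3 was at 113 and 372 CPM summed. Groups this small, cut by a gene of the rule, allow no more than these values.

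**Figure D5:**
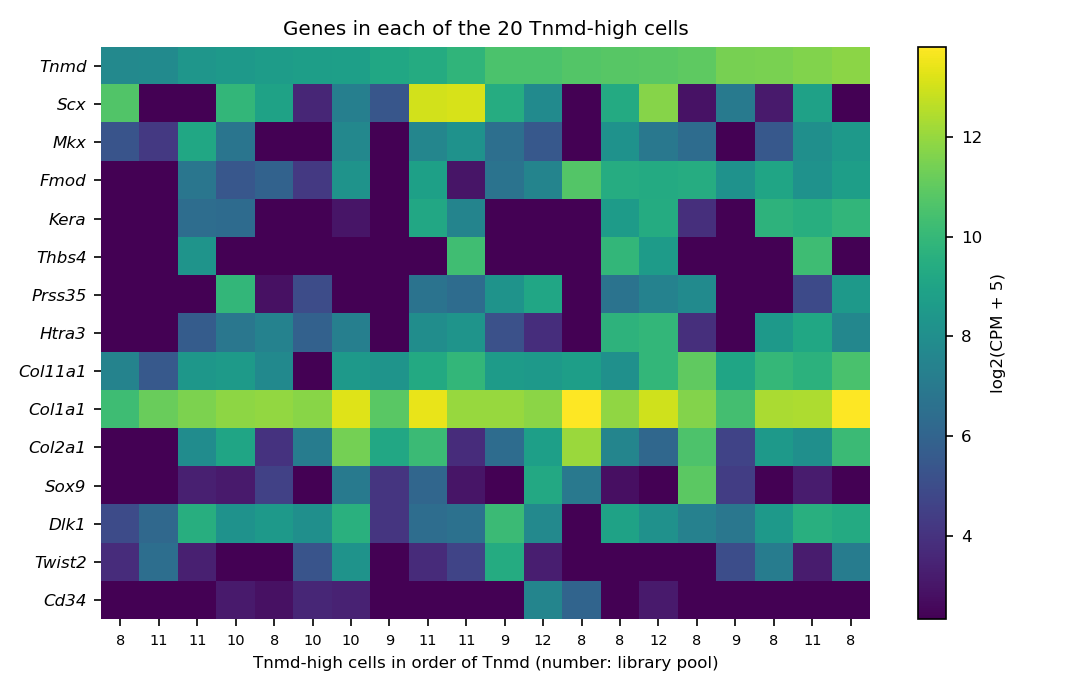
Level of 15 genes, as log2 of CPM + 5 (colour), in each of the 20 Tnmd-high cells, ordered by Tnmd, with the library pool under each column. Fmod and Kera are brighter toward the right, where Tnmd is high, while Scx is bright in cells across the range. Cd34 is dark in most cells.

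The 10 cells with intermediate Tnmd gave values between the groups for some genes. Scx was at 475 CPM, Fmod at 210, Prss35 at 108 and Col11a1 at 352 CPM in them, each between the levels of the Tnmd-high and Tnmd-low cells. Mkx at 6.63 CPM and Zfp185 at 6.63 CPM lay below the Tnmd-low cells, and Dlk1 at 1105 CPM and Clu at 251 CPM lay above them. In the other stages, Tnmd reached 200 CPM in 0 cells at E10.5 and 1 cell at E12.5, against 20 at E15.5.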

How the data were processed

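The authors deposited whole-number counts per gene and cell. Bowtie2, featureCounts and mm10 are named in the submitters' processing notes. The sources used here give no versions, no annotation and nothing on molecular identifiers, so PCR can multiply counts. The table held 22738 entries for 22092 symbols. Of the symbols, 298 were listed more than once: identical entries were kept once and differing ones added. All 480 columns matched a sample title, and 1120 further samples were not analysed here. No 2 E15.5 cells held identical counts.

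Cells were grouped by the rule on Tnmd, Col1a1 and Col2a1, which were left out of all counts of genes. Counts were summed per group and scaled to CPM. Python 3.11.15, numpy 2.4.6, pandas 2.3.3 and scipy 1.17.1 were used, and edgeR 4.0.16 for TMM factors. By the naming rule the text could draw on the top 15 pool-rule genes per direction by ratio (read in 30% or more of the cells of the higher group, and from 50 CPM there, without ribosomal and predicted genes), on up to 4 called members per list from 20 CPM, and on a fixed set of tendon, cartilage and connective tissue genes. Genes named for the share rule lie outside this. The result of 1 gene is not reported here. Other list members and Col2a1-high values were also chosen after their values were seen.

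The groups, members and lists were chosen with earlier results of these data known. The 33 lists held 556 symbols, of which 7 were found under another symbol and 2 (Col6a3 and Col26a1) were not matched.

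The calls were tested on simulated data. There the pool rule called about as many unchanged genes as in the cells, so its counts are background. The share rule was then chosen from 12 combinations of 20, 50 or 100 CPM with 25, 30, 35 or 40 percentage points, after the counts of each, on these cells and on simulated data, and the genes had been seen. Adding the pool condition, or conditions on the highest cell and on per-cell means, was also looked at. Because it was chosen in this way, its counts in either direction are given as a description. Its lower count was also not above that on simulated unchanged genes. The same comparison is not given here for its higher count, so none should be inferred.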

Additional observations from a re-analysis of the deposited data

How the results depend on the processing

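Counts by the pool rule were 93 higher and 851 lower. They became 56 and 407 with 20 CPM added, 43 and 1772 when each gene lost its top cell in both groups, 182 and 1428 with Tnmd-high cells from 500 CPM, 399 and 1731 with the Col1a1 and Col2a1 conditions for Tnmd-high cells, and 857 and 1854 without the pool condition. They were 44 and 211 for genes from 50 CPM over both groups, and 43 and 203 when cells with markers of other types were also left out. With Tnmd-low cells at 0 Tnmd counts the lower count was 459. Leaving out each pool gave 134 to 234 higher and 956 to 1340 lower genes. Without pool 8, 9, 10 or 11, and with Tnmd-high cells from 500 CPM, the condition rests on 3 pools in place of 4. With the Col1a1 and Col2a1 conditions it rests on 2 pools. The pool rule is looser in these settings, so their counts are not on the same footing as 93 and 851. The share of higher genes among all called was 9.85%, and 20.0% with Tnmd-low cells at 0 Tnmd counts and 31.6% without the pool condition; with TMM factors it was 14.1%, and 2.37% without the top cell of each gene. Counts by the share rule, 66 higher and 5 lower, became 27 and 0 with Tnmd-high cells from 100 CPM, 124 and 13 from 500 CPM, and 121 and 16 with the Col1a1 and Col2a1 conditions. The lower count was 3 with Tnmd-low cells at 0 Tnmd counts, and 10 without cells with markers of other types, also for genes from 50 CPM. Leaving out each pool gave 58 to 116 higher and 5 to 9 lower genes. Of the share rules looked at, 25, 35 and 40 points gave 105, 31 and 20 higher and 29, 2 and 0 lower genes at 20 CPM, 103, 40 and 18 higher and 11, 1 and 0 lower at 50 CPM, and 84, 22 and 11 higher and 7, 0 and 0 lower at 100 CPM. At 30 points the lower counts were 9 at 20 CPM and 1 at 100 CPM. Col11a1, Fat1, Fmod and Yipf5 were higher under all 12. Under the 16 alternatives other than these, 12 of the 66 higher genes were kept throughout, 7 were lost under 1, none of the 5 lower genes was kept throughout, and no sign of these turned. Yipf5 was lost under 7 of these 16 alternatives, whereas Col11a1, Fat1 and Fmod were kept under all of them. After thinning, 41 of the 66 higher and 2 of the 5 lower genes still met the share rule. Of 2208 log2 ratios of single genes under alternatives, 1179 lay within the counting interval, 1028 outside it, and 1 of a called gene turned sign: Krt14, 0.0568 without cells with markers of other types. Ratios of uncalled genes such as Sox9 also crossed 0. Among all pool-rule genes, at most 14 lower genes (Tnmd-high from 100 CPM) and 3 higher genes (Col1a1 and Col2a1 conditions) crossed 0 under an alternative. Where counts moved, the cause was not tested beyond what each setting changes by construction. With 20 Tnmd-high cells of 1 litter, nothing here separates a difference between cell groups from one between these embryos' cells, and shares carry wide intervals. No paired analysis was possible because the groups are cells of 1 sample without replicates.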
